A study of Mus musculus with 6 samples.

Results

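The genes described here are 38 mouse genes of cholesterol and fatty acid metabolism: 19 genes of sterol synthesis in pathway order, 5 regulators of the sterol response (SREBP regulators), 7 genes of sterol transport and storage and 7 genes of fatty acid synthesis. They were chosen by symbol from a table of 54232 genes, without use of their measured values in the rule. Bulk RNA-seq was carried out on whole testes of B6D2F1 mice at postnatal day 12, with 3 libraries labelled *Dis3l2* WT (control) and 3 labelled *Dis3l2* KO. The paper describes the second group as carrying a floxed and a deleted *Dis3l2* allele with *Stra8-Cre* (a transgene that recombines in part of the spermatogonia and in the germ cells that follow them), and the controls as littermates. Gene-level counts did not show the labelled deletion, although they cannot resolve the loss of single exons, and the study's other assays of the deletion were not analysed here. *Dis3l2* stood, in CPM (TMM-scaled counts per 1000000), at 25.8, 23.5 and 23.03 CPM in control testes against 31.6, 25.4 and 27.5 CPM in KO-labelled testes (log2 fold change 0.22 ± 0.11 (SE), adjusted p = 0.136), whereas *Dis3*, the related exosome nuclease, stood at 133, 148 and 137 CPM in control testes against 59.1, 64.3 and 68.1 CPM in KO-labelled testes (log2 fold change -1.13 ± 0.08 (SE), adjusted p = 2.71e-07), and the design text of the series names *Dis3*. The second group is therefore called KO-labelled throughout. Germ cell markers also fell in this group (median log2 fold change -1.66 over 18 genes), and the source of the fall of *Dis3* was not tested.

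Cells make cholesterol from acetyl-CoA through mevalonate, farnesyl diphosphate, squalene and lanosterol, and they make saturated and monounsaturated fatty acids from the same precursor. SREBP transcription factors, held in the endoplasmic reticulum by SCAP and INSIG proteins when sterols are plentiful, switch on many of these genes when sterols run low. In the testis, Leydig cells turn cholesterol into testosterone, Sertoli cells clear and store lipids of the germ cells they nurse, and lanosterol derivatives are known as meiosis-activating sterols.

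Values per library are given in the order of replicates 1, 2 and 3 (n = 3 libraries in each group). A gene was called when its Benjamini-Hochberg adjusted p from the quasi-likelihood test of edgeR, over 20327 genes tested, was under 0.05. All 38 members passed the filter on low counts. The libraries held 33325483 to 44956193 counts, and 36 of the 38 members had at least 100 counts in every library. The study describes the libraries of a group as biological replicates, but the labels do not name the animals, and p-values measure the spread between these libraries.

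Cholesterol and fatty acid genes were more often higher than lower in the KO-labelled testes. Of the 38 members, 20 rose, 1 fell (*Dhcr7*) and 17 were not called with TMM factors, whereas 1 rose and 11 fell with scaling to somatic markers. With TMM the median log2 fold change was 0.32 against -0.02 over all genes tested. Over all genes tested, 16.2% were called higher and 16.5% lower (32.7% in either direction). All 3 KO-labelled libraries lay above every control library for 17 members and below for 1, where 21.7% and 23.8% of all genes did so. No member changed 2-fold or more. The 7 fatty acid synthesis genes were all called higher, as were 5 of the 7 transport genes, 2 of the 5 regulators and 6 of the 19 sterol synthesis genes.

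These directions are relative to the bulk of the transcriptome, and germ cell RNA made up less of it in the KO-labelled libraries. Germ cell markers, led by *Dazl*, *Sycp1* and *Taf7l*, summed to 3075 to 3598 CPM in the control and 1081 to 1422 CPM in the KO-labelled libraries, with 15 of 18 called lower. Sertoli markers, led by *Clu*, *Aard* and *Ctsl*, summed to 10093 to 10657 and 15875 to 16904 CPM, with 17 of 18 called higher. In such bulk samples fewer cells of a type and less RNA per cell cannot be told apart. When the libraries were instead scaled to 59 somatic marker genes, the median of all genes moved to -0.49, 1.72% of genes were called higher and 48.1% lower, and among the members 1 was called higher (*Hmgcs1*), 11 lower, and 30 had a negative log2 fold change. A change of scaling shifts all genes by about the same amount, so the distance of the members' median from that of all genes (0.35 with TMM, 0.34 with somatic scaling) is fixed by construction.

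**Figure D1:**
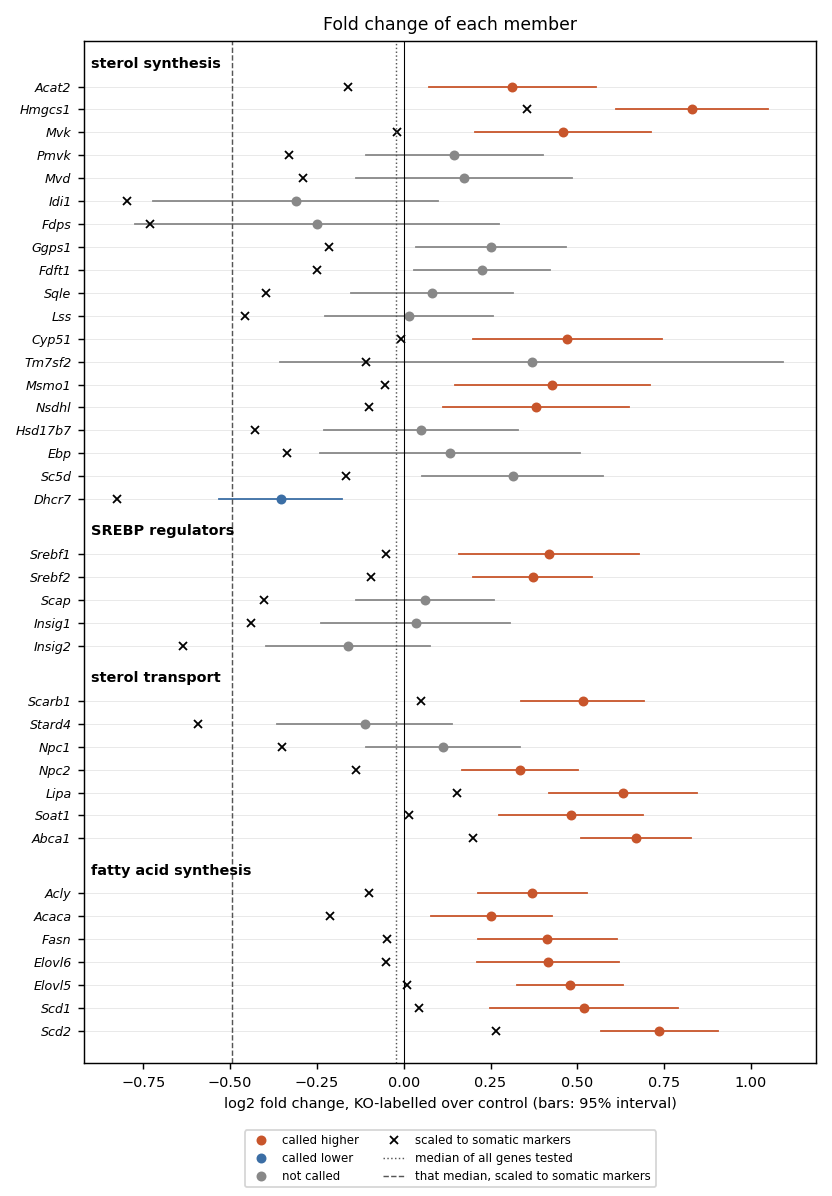
Log2 fold change of KO-labelled over control for the 38 members by role (points, with 95% intervals as bars), coloured by the call of edgeR with TMM factors; crosses give the value after scaling to somatic markers, and vertical lines the median of all genes tested under each scaling. With TMM 20 members were called higher, whereas with somatic scaling 8 of the 38 crosses lie above 0 and 1 member was called higher.

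Promoter sequences are shown for members of each group on which the results turn: *Hmgcs1* and *Mvk*, the sterol synthesis genes with the smallest adjusted p among those that rose, *Dhcr7*, the only member that fell, the regulator *Srebf2*, the transporter *Abca1* and the fatty acid synthase *Fasn*. RefSeq windows (GRCm38.p6, 250 bases before to 50 bases after an annotated start site) were matched for 30 of the 38 members and searched on both strands for TCACNCCAC (a sterol regulatory element), CCAAT (bound by NF-Y), CACGTG (an E-box) and a DR4 element of the LXR type (AGGTCA repeated after 4 bases). Each sequence reads 5′ to 3′ on the strand of its gene, and capitals mark matches, with CCAAT on the opposite strand read as ATTGG. They lie at chr13:119690101-119690400 (*Hmgcs1*, plus strand), chr5:114444019-114444318 (*Mvk*, plus), chr7:143823149-143823448 (*Dhcr7*, plus), chr15:82147019-82147318 (*Srebf2*, plus), chr4:53159846-53160145 (*Abca1*, minus) and chr11:120824498-120824797 (*Fasn*, minus).
Hmgcs1: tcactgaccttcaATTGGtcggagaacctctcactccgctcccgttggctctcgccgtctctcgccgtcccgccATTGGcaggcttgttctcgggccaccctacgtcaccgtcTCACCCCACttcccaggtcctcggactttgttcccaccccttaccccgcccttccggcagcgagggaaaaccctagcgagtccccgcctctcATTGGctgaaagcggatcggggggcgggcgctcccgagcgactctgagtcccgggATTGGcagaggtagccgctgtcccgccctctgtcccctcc
Mvk: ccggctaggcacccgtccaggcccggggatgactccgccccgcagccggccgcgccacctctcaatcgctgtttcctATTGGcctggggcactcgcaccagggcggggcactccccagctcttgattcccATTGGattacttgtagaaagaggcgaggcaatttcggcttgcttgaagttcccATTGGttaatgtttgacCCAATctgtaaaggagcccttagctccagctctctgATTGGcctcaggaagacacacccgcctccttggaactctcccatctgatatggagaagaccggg
Dhcr7: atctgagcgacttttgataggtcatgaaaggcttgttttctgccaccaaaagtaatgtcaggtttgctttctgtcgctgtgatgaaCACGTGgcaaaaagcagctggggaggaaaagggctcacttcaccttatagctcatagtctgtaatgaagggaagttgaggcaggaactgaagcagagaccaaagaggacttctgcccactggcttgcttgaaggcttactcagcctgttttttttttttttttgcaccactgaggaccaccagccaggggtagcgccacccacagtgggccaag
Srebf2: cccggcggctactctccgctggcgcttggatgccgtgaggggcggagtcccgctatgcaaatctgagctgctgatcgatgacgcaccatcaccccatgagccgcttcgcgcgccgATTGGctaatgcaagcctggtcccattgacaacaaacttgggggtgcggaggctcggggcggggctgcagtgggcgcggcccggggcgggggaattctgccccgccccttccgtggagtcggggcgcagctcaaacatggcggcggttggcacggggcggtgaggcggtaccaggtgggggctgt
Abca1: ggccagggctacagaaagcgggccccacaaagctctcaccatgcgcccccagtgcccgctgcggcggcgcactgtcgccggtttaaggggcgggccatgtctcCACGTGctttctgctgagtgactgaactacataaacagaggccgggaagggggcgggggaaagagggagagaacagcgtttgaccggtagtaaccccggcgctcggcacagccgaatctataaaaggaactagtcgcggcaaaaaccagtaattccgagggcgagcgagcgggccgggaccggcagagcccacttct
Fasn: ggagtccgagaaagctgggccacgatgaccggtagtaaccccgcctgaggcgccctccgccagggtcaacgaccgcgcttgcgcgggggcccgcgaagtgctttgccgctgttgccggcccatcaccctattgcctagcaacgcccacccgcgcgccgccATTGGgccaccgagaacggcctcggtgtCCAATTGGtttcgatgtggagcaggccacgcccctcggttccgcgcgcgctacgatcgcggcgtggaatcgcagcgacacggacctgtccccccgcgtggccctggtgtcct

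An exact match to the sterol regulatory element TCACNCCAC was found in 1 of the 30 members (3.33%) and in 1.44% of 27025 mouse genes with such a window. The member is *Hmgcs1*, where the match begins 137 bases before the start site. CCAAT matches accompany it in that window, 4 in all, and *Mvk* has 5. CCAAT was present in 25 of 30 members (83.3%) against 41.1% of all genes, and in 15 of the 16 sterol synthesis genes with a window. It did not separate the members by their call: 13 of 17 members that rose and 11 of 12 that were not called carried it. In *Fasn* a match on each strand overlaps the other in the run CCAATTGG. An E-box stood in 7 of 30 members (23.3%) against 8.09% of all genes, namely *Hsd17b7*, *Sc5d*, *Dhcr7*, *Scap*, *Insig1*, *Abca1* and *Elovl5*. An exact match to the DR4 pattern was found in 0 of 30 against 0.0148% of all genes. Variants that differ from a pattern by 1 or more bases were not searched for, so these counts do not show that a promoter lacks an element. RefSeq gives 3 start sites for *Dhcr7*, and the window printed is the one with the E-box; the window farthest downstream holds 2 CCAAT matches.

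Sterol synthesis was the group with the smallest share of members called higher. Of its 19 genes, 6 rose by 1.24-fold to 1.78-fold, 1 fell, and the 12 others had log2 fold changes from -0.31 to 0.37; the group's median was 0.23. With somatic scaling 1 of the 19 was called higher, 6 lower, and 18 had a negative log2 fold change, with a median of -0.25, where 1.72% of all genes were called higher, 48.1% lower, and the median was -0.49.

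The early steps make mevalonate. *Hmgcs1* (chr13:119690379-119708260, plus strand), the cytosolic HMG-CoA synthase, stood at 162, 185 and 166 CPM in control testes against 314, 343 and 255 CPM in KO-labelled testes. Its lowest KO-labelled library was well above its highest control library, and the rise was the largest of all 38 members (1.78-fold, log2 fold change 0.83 ± 0.10 (SE), adjusted p = 2.87e-05). It is also the only member called higher with somatic scaling (log2 fold change 0.35, adjusted p = 0.019). Of its 50-base words, 11.6% are shared with transcripts of other genes, and an antisense gene covers 12.1% of its exons, which the strand-specific counting keeps apart. *Acat2*, which joins acetyl-CoA units one step earlier, stood at 17.7, 15.3 and 16.9 CPM in control testes against 21.8, 19.9 and 20.3 CPM in KO-labelled testes. The groups did not overlap, but the call was marginal (1.24-fold, log2 fold change 0.31 ± 0.11 (SE), adjusted p = 0.0458) and was lost in each of the 6 fits that left out 1 library (adjusted p from 0.0588 to 0.116). Of its 50-base words, 39.1% occur on either strand in other genes, namely *Tcp1* and *Acat3*, a close copy of *Acat2*. Reads that fit several positions were not counted, and the number of reads lost in this way was not measured.

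Mevalonate kinase, *Mvk*, stood at 23.3, 21.7 and 22.8 CPM in control testes against 34.6, 32.9 and 25.6 CPM in KO-labelled testes. KO-labelled replicate 3 was only slightly above the controls, and the other KO-labelled libraries were clearly higher (1.37-fold, log2 fold change 0.46 ± 0.12 (SE), adjusted p = 0.00816). The steps from mevalonate to squalene were mostly without a call. *Pmvk* (phosphomevalonate kinase, 0.15 ± 0.12), *Mvd* (mevalonate diphosphate decarboxylase, 0.17 ± 0.15), *Ggps1* (which makes geranylgeranyl diphosphate on a side branch, 0.25 ± 0.10) and *Fdft1* (squalene synthase, 0.23 ± 0.09) had positive log2 fold changes (± SE), and *Idi1* (isopentenyl diphosphate isomerase, -0.31 ± 0.19) and *Fdps* (farnesyl diphosphate synthase, -0.25 ± 0.25) negative ones. *Ggps1* (adjusted p = 0.0698, called in 2 of 6 fits without 1 library) and *Fdft1* (adjusted p = 0.0739) came close to the threshold. For *Fdft1* the control libraries spanned 54.96 to 56.2 CPM and the KO-labelled libraries 58.4 to 72.3 CPM, with no overlap. Counts of *Idi1*, *Fdps* and *Fdft1* may be less certain, since 25.3%, 26.2% and 26.5% of their 50-base words are shared with other genes on either strand. Some of these are antisense genes, which cover 9.2% of the exons of *Idi1* and 18.3% of those of *Fdft1*. The strand-specific counting keeps reads of such genes apart. For *Fdps*, a gene on its own strand covers 26.7% of the exons, and reads that fit several genes were not counted.

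From squalene to cholesterol, *Cyp51*, *Msmo1* and *Nsdhl*, which strip methyl groups from lanosterol, rose with TMM factors and none with somatic scaling. *Sqle* (squalene epoxidase, 0.08 ± 0.11) and *Lss* (lanosterol synthase, 0.02 ± 0.11) were not called. *Cyp51*, the lanosterol demethylase, stood at 57.9, 52.5 and 48.2 CPM in control testes against 84.9, 78.1 and 56.6 CPM in KO-labelled testes (1.39-fold, log2 fold change 0.47 ± 0.13 (SE), adjusted p = 0.0106). *Tm7sf2*, a sterol reductase that acts on the product of *Cyp51*, was not called (0.37 ± 0.34). At 1.18 to 3.77 CPM, its interval (-0.36 to 1.09) is wide enough to hold a 2-fold rise, and 47.2% of its exon length overlaps other genes on its strand. *Msmo1* and *Nsdhl* remove further methyl groups from the sterol ring. *Msmo1* stood at 47.03, 48.8 and 40.9 CPM in control testes against 71.3, 65.7 and 46.9 CPM in KO-labelled testes (1.35-fold, log2 fold change 0.43 ± 0.13 (SE), adjusted p = 0.0209), and *Nsdhl* at 45.9, 46.7 and 43.5 CPM in control testes against 66.9, 65.2 and 45.1 CPM in KO-labelled testes (1.30-fold, log2 fold change 0.38 ± 0.13 (SE), adjusted p = 0.03). In all 3 genes KO-labelled replicate 3 lay within the range of the control libraries, while replicates 1 and 2 lay above it. Their calls depended on single libraries: that of *Cyp51* was lost without control replicate 3 (adjusted p = 0.0519), and those of *Msmo1* and *Nsdhl* were lost in 4 of 6 fits that left out 1 library, namely those without replicate 1 or 3 of the control or replicate 1 or 2 of the KO-labelled group (adjusted p up to 0.0936 and 0.126). With somatic scaling *Cyp51*, *Msmo1* and *Nsdhl* had log2 fold changes of -0.01, -0.05 and -0.10.

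The remaining genes of the group mostly act on the ring's double bonds. *Hsd17b7* (a sterol ketoreductase, 0.05 ± 0.13), *Ebp* (a sterol isomerase, 0.13 ± 0.17) and *Sc5d* (a sterol desaturase, 0.31 ± 0.12) were not called, with *Sc5d* the nearest to the threshold of all members that missed it (adjusted p = 0.0617, and 0.0431 with DESeq2). *Dhcr7* (chr7:143823145-143848410, plus strand), the reductase that yields cholesterol, went the other way. It stood at 112, 122 and 118 CPM in control testes against 86.7, 100.1 and 88.4 CPM in KO-labelled testes, with every KO-labelled library below every control library (0.78-fold, log2 fold change -0.35 ± 0.08 (SE), adjusted p = 0.00411). The fall was called in all 6 fits that left out 1 library. It was also called with somatic scaling, but that scaling lowers every gene by construction. There, 6 sterol synthesis genes in all and 48.1% of all genes were called lower, so that call adds no separate support.

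**Figure D2:**
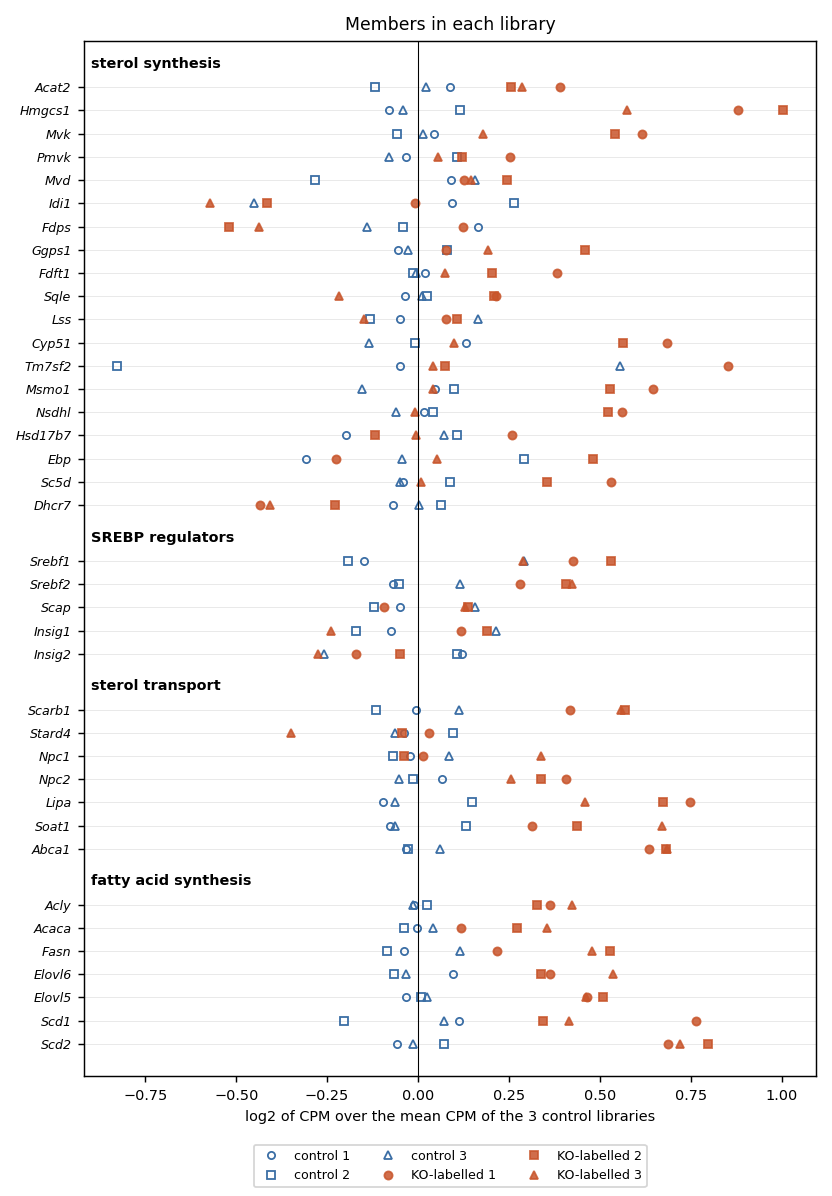
Level of each of the 38 members in each library, as the log2 ratio of its TMM-scaled CPM to the mean CPM of the 3 control libraries; open symbols are control and filled symbols KO-labelled libraries, with shapes for replicates. In the fatty acid group all KO-labelled symbols lie to the right of the control symbols, whereas in the sterol synthesis group the triangles of KO-labelled replicate 3 lie within or below the control range for 14 of 19 genes.

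KO-labelled replicate 3 stood apart from replicates 1 and 2 in sterol synthesis. It was the lowest of the KO-labelled libraries for 12 of the 19 genes and the highest for 0, whereas replicate 1 was the highest for 13 and replicate 2 for 6. The median ratio to the control mean over these genes was 1.196 in replicate 1, 1.18 in replicate 2 and 1.03 in replicate 3. The SREBP regulators went partly the same way: replicate 3 was the lowest KO-labelled library for 3 of the 5 and lay within or below the control range for 4, with median ratios of 1.09, 1.14 and 1.09. In transport (1.33, 1.35 and 1.38) and fatty acid synthesis (1.29, 1.27 and 1.38) replicate 3 had the highest median ratio. That did not extend to the further pathway genes described below. Replicate 3 was lowest for the other fatty acid genes (1.29, 1.27 and 1.10) and the other transport genes (1.21, 1.18 and 1.10). It was not lowest for the other regulators (1.09, 1.03 and 1.07) or the isoprenoid branch genes (0.93, 1.03 and 0.94). Without replicate 3, 7 sterol synthesis genes were called higher and 1 lower, where 15.4% of all genes were called in each direction: *Fdft1* (adjusted p = 0.0235) and *Sc5d* (adjusted p = 0.00432) were gained and *Acat2* (adjusted p = 0.0588) was lost.

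Leydig markers as a list were also lowest in replicate 3. Led by *Hsd3b1*, *Prlr* and *Cyp17a1*, they had median ratios of 1.49, 1.57 and 1.18 in KO-labelled replicates 1, 2 and 3, and their summed level ran from 428 to 460.0 CPM across control libraries and reached 743, 664 and 593 CPM in the KO-labelled ones, with 6 of 10 called higher and 0 lower. The order did not hold for every marker: *Cyp17a1* was highest in replicate 3, at 100.2, 93.8 and 166 CPM, and *Hao2*, *Thbs2* and *Hsd11b1* were lowest in replicate 2. Macrophage markers (ratios of 1.67, 1.33 and 1.28, with 6 of 8 called higher) and stromal markers (1.602, 1.25 and 1.14, with 4 of 8 called higher and 1 lower) were also lowest in replicate 3, and Sertoli markers (1.57, 1.74 and 1.53) only slightly so. Endothelial markers were instead highest in replicate 3 (1.06, 0.93 and 1.17, with 3 of 8 called higher and 0 lower). Peritubular myoid markers lay below the control mean in each (0.85, 0.87 and 0.83, with 0 of 7 called higher and 3 lower). The part of these cell types in the sterol synthesis result was not tested.

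**Figure D3:**
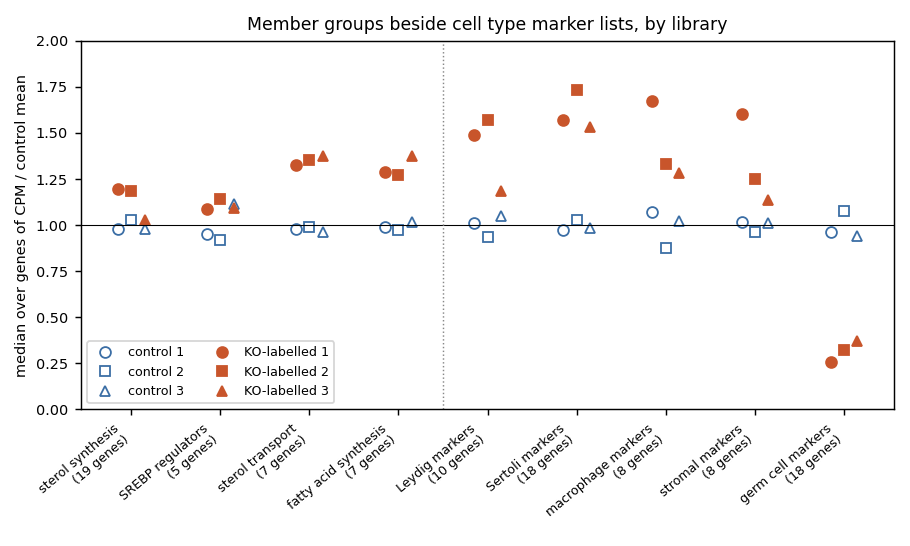
Median over genes of TMM-scaled CPM divided by the mean of the control libraries, for the 4 groups of members (left of the dotted line) and 5 cell type marker lists, with open symbols for control and filled symbols for KO-labelled libraries. Sterol synthesis (1.196, 1.18 and 1.03) and Leydig markers (1.49, 1.57 and 1.18) are both lowest in KO-labelled replicate 3, while fatty acid synthesis is highest there (1.38) and germ cell markers lie at 0.26 to 0.37.

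Transcripts of both SREBP transcription factors rose with TMM factors, with log2 fold changes below 0 and no call under somatic scaling. Those of *Scap*, *Insig1* and *Insig2* were not called with TMM. *Srebf2* (chr15:82147181-82205379, plus strand), which mainly drives sterol genes, stood at 179, 182 and 204 CPM in control testes against 229, 249.6 and 253 CPM in KO-labelled testes. Its groups did not overlap (1.29-fold, log2 fold change 0.37 ± 0.08 (SE), adjusted p = 0.00251). *Srebf1*, which mainly drives fatty acid genes, stood at 38.8, 37.6 and 52.6 CPM in control testes against 57.7, 62.1 and 52.5 CPM in KO-labelled testes. Control replicate 3 reached the level of KO-labelled replicate 3, and the call (1.34-fold, log2 fold change 0.42 ± 0.12 (SE), adjusted p = 0.0157) was lost without replicate 1 or 2 of the control or replicate 2 of the KO-labelled group (adjusted p up to 0.0809). *Srebf2* was the more abundant of the pair, at 26.2 against 7.63 CPM per kilobase of exon in the control libraries.

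*Scap*, the sterol-sensing escort of SREBP, stood at 133, 126 and 153 CPM in control testes against 129, 151 and 150.3 CPM in KO-labelled testes, and the interval of its log2 fold change was -0.14 to 0.26. *Insig1*, itself an SREBP target that retains SCAP, stood at 33.1, 30.96 and 40.4 CPM in control testes against 37.8, 39.7 and 29.5 CPM in KO-labelled testes (0.03 ± 0.13, interval -0.24 to 0.31). *Insig2*, its paralog, stood at 52.6, 52.1 and 40.4 CPM in control testes against 42.9, 46.7 and 39.999 CPM in KO-labelled testes (-0.16 ± 0.11, interval -0.40 to 0.07). For these 3 genes the groups overlapped throughout. With somatic scaling the log2 fold changes of *Srebf2* and *Srebf1* were -0.10 and -0.05 with no call. Those of *Scap*, *Insig1* and *Insig2* were -0.40, -0.44 and -0.63, called lower. Under this scaling 48.1% of all genes were called lower, and the median of all genes was -0.49.

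Among transport genes, those for uptake, lysosomal release, esterification and efflux of cholesterol rose with TMM factors (group median 0.48), and with somatic scaling none was called higher. *Scarb1*, the receptor for high-density lipoprotein through which steroid-making cells and Sertoli cells take up lipid, stood at 207, 192 and 225 CPM in control testes against 278, 308 and 306 CPM in KO-labelled testes. The gap between groups was wider than the spread within either (1.43-fold, log2 fold change 0.52 ± 0.08 (SE), adjusted p = 0.000253). *Lipa*, the lysosomal acid lipase that frees cholesterol from its esters, stood at 42.97, 50.9 and 43.95 CPM in control testes against 77.1, 73.3 and 63.2 CPM in KO-labelled testes (1.55-fold, log2 fold change 0.63 ± 0.10 (SE), adjusted p = 0.000223). *Npc2*, which hands the freed cholesterol on inside the lysosome, stood at 107, 101 and 98.2 CPM in control testes against 135, 129 and 122 CPM in KO-labelled testes (1.26-fold, log2 fold change 0.33 ± 0.08 (SE), adjusted p = 0.00403). Neither gene's groups overlapped. *Npc1*, the membrane partner of *Npc2*, was not called (0.11 ± 0.10), and only KO-labelled replicate 3, at 70.3 CPM, was above the control range of 53.1 to 59.1 CPM.

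*Soat1*, which esterifies cholesterol for storage, stood at 229, 265 and 231 CPM in control testes against 300.3, 327 and 384 CPM in KO-labelled testes. All KO-labelled libraries were higher, replicate 3 the most (1.40-fold, log2 fold change 0.48 ± 0.10 (SE), adjusted p = 0.00144). *Abca1* (chr4:53030787-53159895, minus strand), the pump that exports cholesterol to apolipoproteins and a known LXR target, stood at 319, 321 and 340.5 CPM in control testes against 508, 524 and 525 CPM in KO-labelled testes. The KO-labelled libraries were close to each other, and the rise was the largest among transport genes (1.59-fold, log2 fold change 0.67 ± 0.07 (SE), adjusted p = 1.17e-05). *Stard4*, a cytosolic cholesterol carrier, was not called (-0.11 ± 0.12), with libraries at 23.1 to 25.8 CPM in the control and 18.9 to 24.6 CPM in the KO-labelled group. The 5 transport genes that rose were called in all 6 fits that left out 1 library. With somatic scaling 4 of the 7 kept a positive log2 fold change, none of them called. Another 2 (*Stard4* and *Npc1*) were called lower, where 48.1% of all genes were.

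All 7 fatty acid synthesis genes rose with TMM factors, by 1.19-fold to 1.67-fold, and none was called in either direction with somatic scaling. The group's median log2 fold change was 0.41 with TMM, with no overlap between groups for any of the 7 genes. *Acly*, which makes cytosolic acetyl-CoA from citrate and so feeds sterol synthesis as well, stood at 301, 309 and 301 CPM in control testes against 390.5, 381 and 407 CPM in KO-labelled testes (1.29-fold, log2 fold change 0.37 ± 0.07 (SE), adjusted p = 0.00123). *Acaca*, the acetyl-CoA carboxylase that commits carbon to fatty acids, stood at 97.97, 95.6 and 101 CPM in control testes against 107, 119 and 126 CPM in KO-labelled testes. Its difference was the smallest of the group (1.19-fold, log2 fold change 0.25 ± 0.08 (SE), adjusted p = 0.0277), its call was lost when control replicate 1 or either of KO-labelled replicates 2 and 3 was left out (adjusted p from 0.0827 to 0.0994), and 30.4% of its 50-base words occur in other genes. *Fasn*, the fatty acid synthase itself, stood at 579, 561 and 644 CPM in control testes against 691, 857 and 828 CPM in KO-labelled testes. KO-labelled replicate 1 was nearest to the controls, and the groups stayed apart (1.33-fold, log2 fold change 0.41 ± 0.09 (SE), adjusted p = 0.00348).

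Elongases and desaturases extend and unsaturate the product. *Elovl6*, which lengthens palmitate to stearate, stood at 35.5, 31.7 and 32.4 CPM in control testes against 42.7, 41.9 and 48.1 CPM in KO-labelled testes (1.33-fold, log2 fold change 0.41 ± 0.10 (SE), adjusted p = 0.00377). *Elovl5*, an elongase of polyunsaturated fatty acids, stood at 219.8, 226 and 229 CPM in control testes against 311, 320.1 and 309.9 CPM in KO-labelled testes (1.39-fold, log2 fold change 0.48 ± 0.07 (SE), adjusted p = 0.000145). In both genes the lowest KO-labelled library lay above the highest control library. *Scd1* (chr19:44394451-44407709, minus strand) and *Scd2* (chr19:44293676-44306864, plus strand), neighbouring stearoyl-CoA desaturase genes, rose together. *Scd1* stood at 25.8, 20.7 and 25.01 CPM in control testes against 40.5, 30.2 and 31.7 CPM in KO-labelled testes (1.43-fold, log2 fold change 0.52 ± 0.13 (SE), adjusted p = 0.00558). *Scd2* stood at 745, 815 and 768 CPM in control testes against 1249, 1349 and 1279 CPM in KO-labelled testes (1.67-fold, log2 fold change 0.74 ± 0.08 (SE), adjusted p = 8.69e-06), the smallest adjusted p of the 38 members. Under 5% of the words of either gene are shared with other genes, including each other. With somatic scaling *Elovl5*, *Scd1* and *Scd2* had positive and the other 4 negative log2 fold changes.

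Once counts were divided by exon length, 4 fatty acid genes were the most abundant members, while the other 3 were among the lower ones. In the control libraries *Scd2* stood at 142 CPM per kilobase, 28.9 times the level of *Scd1* (4.93), followed by *Elovl5* (63.9), *Acly* (57.5) and *Fasn* (54.3), whereas *Acaca* stood at 5.75 and *Elovl6* at 5.16. *Hmgcs1* was the most abundant sterol synthesis gene at 37.2 CPM per kilobase and reached 66.1 in the KO-labelled libraries. The next sterol synthesis gene in the control libraries was *Dhcr7* at 20.2, which fell to 15.8. *Abca1* (31.5), *Soat1* (24.7) and *Scarb1* (24.5) led the transport genes. Only *Fdps* (0.708) and *Tm7sf2* (0.373) were under 1 CPM per kilobase. Other genes on the same strand overlap 26.7% and 47.2% of their exon length. Reads that fit several genes were not counted, so these 2 levels may be too low.

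**Figure D4:**
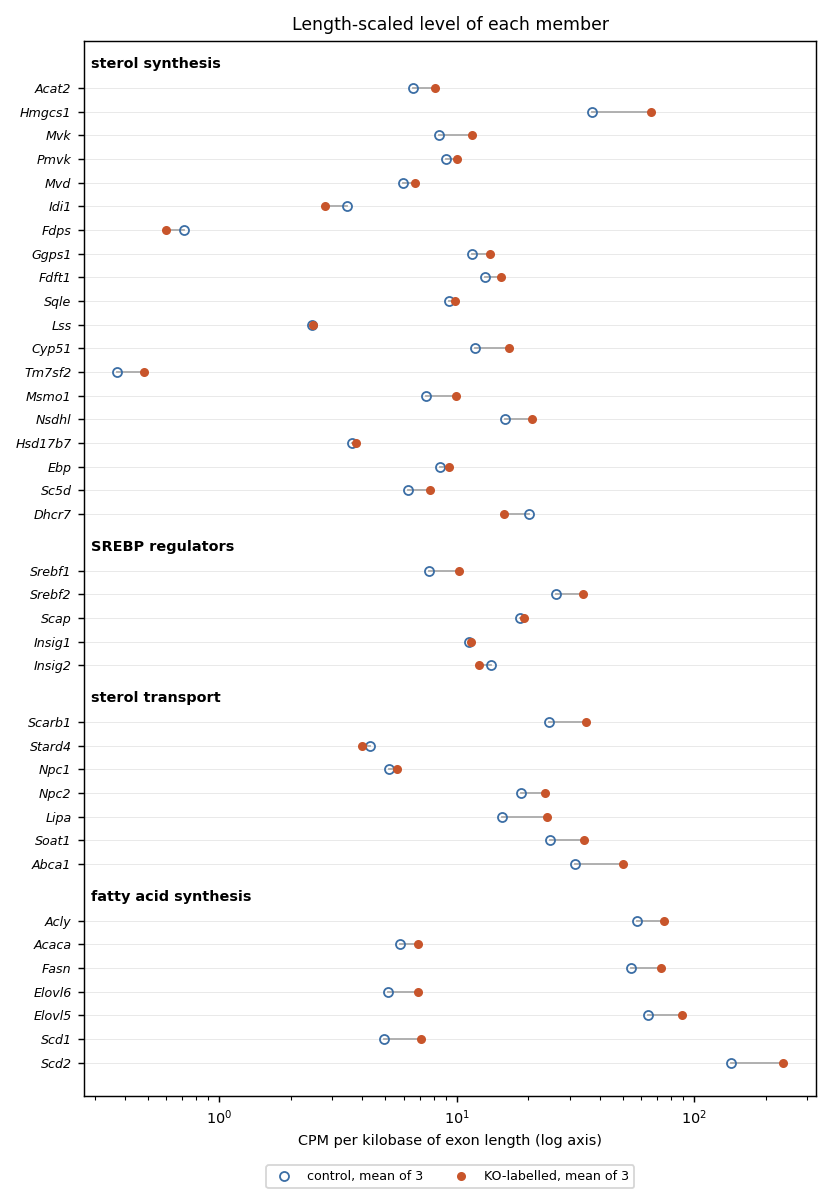
Mean length-scaled level of each member (CPM per kilobase of exon, log axis) in the control (open) and KO-labelled libraries (filled), with n = 3 libraries each and a line joining the means. Levels in the control libraries run from 0.373 for *Tm7sf2* to 142 for *Scd2*, and the shift of *Hmgcs1* from 37.2 to 66.1 is the largest on this axis.

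Beyond the 38 members, 59 further genes of the same pathways were listed from general knowledge and 56 were tested. Of these, 16 were called higher, 6 lower and 34 were not called, with a median log2 fold change of 0.14 against -0.02 over all genes tested and the background shares of 16.2% and 16.5% given above. Other fatty acid genes accounted for 8 of those that rose (of 19 tested) and other transport genes for 6 (of 18), regulators for 2 (of 10) and isoprenoid branch genes for 0 (of 9). With somatic scaling 0 of the 56 were called higher and 27 lower, where 1.72% and 48.1% of all genes were, so these counts are near the background.

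The smallest adjusted p among the genes that rose were those of *Me1*, *Elovl2* and *Gramd1b*. *Me1*, the malic enzyme that supplies reducing power for fatty acid synthesis, stood at 196, 194 and 197 CPM in control testes against 343, 305 and 289.9 CPM in KO-labelled testes (log2 fold change 0.68 ± 0.08 (SE), adjusted p = 2.14e-05). *Elovl2*, an elongase of very long polyunsaturated fatty acids needed for male fertility in mice, stood at 183, 193 and 191 CPM in control testes against 282, 325 and 284 CPM in KO-labelled testes (log2 fold change 0.65 ± 0.08 (SE), adjusted p = 2.8e-05). *Gramd1b*, which carries cholesterol from the plasma membrane to the endoplasmic reticulum, stood at 87.6, 72.5 and 91.7 CPM in control testes against 134, 134 and 124 CPM in KO-labelled testes (log2 fold change 0.64 ± 0.09 (SE), adjusted p = 0.000104). For none of the 3 did the groups overlap.

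In the other direction, *Acss2*, which makes acetyl-CoA from acetate and is a source of it alternative to *Acly*, stood at 43.98, 44.8 and 40.8 CPM in control testes against 20.02, 22.8 and 24.4 CPM in KO-labelled testes (log2 fold change -0.95 ± 0.10 (SE), adjusted p = 9.61e-06). *Abca2*, a transporter of late endosomes and lysosomes, stood at 121, 113 and 138 CPM in control testes against 79.04, 99.3 and 88.5 CPM in KO-labelled testes (log2 fold change -0.48 ± 0.10 (SE), adjusted p = 0.00169). *Pdss1*, which builds the isoprenoid tail of coenzyme Q, stood at 11.6, 11.4 and 9.72 CPM in control testes against 5.67, 5.56 and 7.65 CPM in KO-labelled testes (log2 fold change -0.79 ± 0.17 (SE), adjusted p = 0.00207). All KO-labelled libraries lay below the control libraries for each of these genes.

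Adipocyte markers were measured as well, since fat cells also express fatty acid synthesis genes. Of 15 such markers 6 did not pass the filter, with at most 20 counts in any library; *Adipoq* had at most 10 counts, and *Lep* and *Cfd* had 0 in every library. The 9 tested had a median log2 fold change of -0.30. Of these, 2 were called lower, *Pck1* (log2 fold change -1.37 ± 0.43 (SE), adjusted p = 0.0226) and *Pparg* (-0.90 ± 0.28 (SE), adjusted p = 0.0211). The 1 called higher was the lipid droplet gene *Plin1* (2.18-fold, log2 fold change 1.12 ± 0.16 (SE), adjusted p = 7.33e-05). *Cidea* was the most abundant at 34.3 CPM in the control and 40.8 CPM in the KO-labelled libraries, without a call. The summed level, to which *Cidea* gave the most, was 53.1 to 68.1 CPM in the control and 68.9 to 79.9 CPM in the KO-labelled libraries, above every control library in each. The part of fat cells in the fatty acid result was not tested.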

How the data were processed

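The data are 3 control and 3 KO-labelled bulk RNA-seq libraries of testes taken at postnatal day 12. Libraries were made from total RNA with depletion of ribosomal sequences, random and poly(T) priming and strand selection, and were read as single ends of 50 bases. Per the labels, the authors removed adapters (cutadapt), mapped the reads to GRCm38.p5 (HISAT2) and assigned them to genes on 1 strand (featureCounts 1.6.4, GENCODE M18), leaving out reads with several positions or several genes. They deposited raw counts for 54232 genes. Reads from words shared between copies are thus lost, which lowers the counts of genes such as *Acat2* and *Acaca*. Names came from GENCODE M21 (54165 identifiers matched, 67 did not), and 0 columns of library values were left unused.

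The test was the quasi-likelihood F test of edgeR 4.0.16 in R 4.3.3, after filterByExpr and TMM, where the study used DESeq2. Standard errors were derived from the log2 fold change and its F statistic, and intervals are 95% intervals from the t distribution. TMM factors were 1.01 to 1.06 in the control and 0.954 to 0.970 in the KO-labelled libraries. Levels between genes are CPM divided by exon length. Shared 50-base words and exon overlaps were computed from GENCODE M21 transcripts in Python 3.11.15 (pandas 2.3.3; matplotlib 3.10.9 for plots). No library was a copy of another (smallest chi-square per degree of freedom 10.9). The fit was tested on simulated data. Promoter windows came from RefSeq; *Fdft1*, *Fdps*, *Npc1*, *Scarb1*, *Scd1*, *Scd2*, *Sqle* and *Stard4* were not matched.

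The members and lists were chosen with earlier results of these data known. All 38 members are named, and values in every library are given for called members and SREBP regulators. The 3 other pathway genes of smallest adjusted p are named in each direction. At most 3 markers are named from a list, except that further Leydig and adipocyte markers are named for their order between libraries, counts or calls. Alternatives were RLE and upper-quartile factors, scaling to 59 somatic markers, DESeq2 1.42.0, limma-voom (limma 3.58.1), no filter, at least 10 counts in every library, the replicate number as a block, and leaving out each library.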

Additional observations from a re-analysis of the deposited data

How the results depend on the processing

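Calls of the members moved little with the tool: 20 or 21 were higher with RLE factors, upper-quartile factors, DESeq2, limma-voom and no filter, 19 with at least 10 counts in every library, and 1 was lower under each of these. Over all genes, 16.2% to 17.9% were called higher and 15.9% to 19.3% lower under these settings, except with no filter (8.42% and 7.96%). Leaving out 1 library gave 15 to 20 higher and 1 lower. The share of all genes called higher also moved, from 11.3% without control replicate 1 (15 members higher) to 15.4% without KO-labelled replicate 3 (20 members higher). In the same 2 fits 12.2% and 15.4% of all genes were called lower. Replicate numbers did not pair the libraries (correlations of deviations -0.0014, -0.0126 and 0.0139), and the replicate block gave 20 higher and 1 lower, with *Acat2* lost and *Ggps1* gained. With that block 16.1% of all genes were called higher and 16.2% lower. Of 532 log2 fold changes of members under an alternative, 450 kept their sign and call, 31 lost the call and 12 gained one without a change of sign, and 39 changed sign, some of them with a change of call.

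Scaling to somatic markers was the exception. It gave 1 member higher and 11 lower, 0 other pathway genes higher and 27 lower, and over all genes 350 higher and 9768 lower (3.46% of calls higher) in place of 3294 and 3347 (49.6%). Log2 fold changes became negative for *Acat2* (-0.16), *Mvk* (-0.019), *Pmvk* (-0.33), *Mvd* (-0.29), *Ggps1* (-0.22), *Fdft1* (-0.25), *Sqle* (-0.40), *Lss* (-0.46), *Cyp51* (-0.0093), *Tm7sf2* (-0.11), *Msmo1* (-0.054), *Nsdhl* (-0.10), *Hsd17b7* (-0.43), *Ebp* (-0.34), *Sc5d* (-0.17), *Srebf1* (-0.051), *Srebf2* (-0.10), *Scap* (-0.40), *Insig1* (-0.44), *Npc1* (-0.35), *Npc2* (-0.14), *Acly* (-0.10), *Acaca* (-0.21), *Fasn* (-0.049) and *Elovl6* (-0.052). The 59 genes include Sertoli and Leydig markers that rose with TMM, so this scaling lowers every gene by construction, and which scaling reflects the amount of RNA per somatic cell cannot be told from these libraries.

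Signs of genes near 0 changed with small choices: *Lss* was -0.0070 with at least 10 counts in every library, and over the fits without 1 library *Lss* ran from -0.024 to 0.11, *Hsd17b7* from -0.054 to 0.15, *Ebp* from -0.074 to 0.34, *Insig1* from -0.042 to 0.16, *Stard4* from -0.18 to 0.0024 and *Npc1* from -0.0026 to 0.19. *Tm7sf2*, at 2 to 3 CPM on average, was measured too coarsely to exclude changes of the size seen in other members.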
